A study of Mus musculus with 15 samples.

Results

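The 45 genes described here are cell cycle genes named by symbol, 23 that act in S phase and 22 that act in mitosis, among 24279 genes with reads in at least 1 mouse. Every member had a row in the table, and members were found by an exact match of the symbol, without use of their levels. Cecal RNA came from 7 AIMD mice, whose microbiome was depleted with antibiotics, and from 8 vehicle-treated mice. All 15 were wild-type C57BL/6 males, 20 weeks old per the labels. By gavage the AIMD mice were given vancomycin, neomycin, ampicillin, metronidazole and the antifungal amphotericin B, and the controls water, every 12 h for 30 days. Ceca were emptied and frozen whole, so the RNA holds epithelium, muscle and immune cells together, and the labels name neither the cage nor the hour of death of a mouse.

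A cell that divides copies its DNA in S phase and parts the copies in mitosis, and different genes are switched on for each. S-phase genes build the helicase, polymerases and nucleotides of replication, and many of them are targets of the E2F factors. Mitotic genes build the spindle, the centromere and the kinases that drive division. Many of them are targets of the MuvB complex with FOXM1, which acts through a CHR element. A CCAAT box often stands in the same promoters. In the cecum the cells that divide lie at the base of the crypts, with dividing lymphocytes in the lymphoid tissue of the wall.

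RefSeq promoters (GRCm38.p6, from 250 bases before to 50 bases after the start of a gene) were matched to 37 of the 45 members, 19 S-phase and 18 mitotic. The stretches below show how the motifs of the 2 groups lie in some of the genes described here. Each stretch is in its gene's direction and ends at the base before the start. Capitals mark the E2F letters (the run TTCCCGC, the run TTGGCGC, the run TTCGCGC and the run TTGCCGC), the CHR letters (the run TTTGAA and the run TTCGAA) and the CCAAT letters (CCAAT), each read on both strands, so that ATTGG is CCAAT on the other strand. Mcm6 lies at chr1:128359706-128359855 (minus strand), Mcm2 at chr6:88898781-88898930 (minus strand), Cdt1 at chr8:122567865-122568014 (plus strand), Mki67 at chr7:135716380-135716529 (minus strand), Kif11 at chr19:37376232-37376381 (plus strand) and Cdk1 at chr10:69352913-69353062 (minus strand).
Mcm6: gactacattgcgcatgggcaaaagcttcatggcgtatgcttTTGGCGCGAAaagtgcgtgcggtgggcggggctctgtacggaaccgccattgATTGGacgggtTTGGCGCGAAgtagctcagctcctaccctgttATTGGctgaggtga
Mcm2: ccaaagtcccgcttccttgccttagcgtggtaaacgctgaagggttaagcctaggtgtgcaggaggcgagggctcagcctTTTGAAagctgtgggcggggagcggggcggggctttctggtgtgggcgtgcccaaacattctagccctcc
Cdt1: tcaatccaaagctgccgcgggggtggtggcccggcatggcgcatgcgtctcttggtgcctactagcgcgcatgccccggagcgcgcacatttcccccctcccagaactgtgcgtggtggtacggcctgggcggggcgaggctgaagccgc
Mki67: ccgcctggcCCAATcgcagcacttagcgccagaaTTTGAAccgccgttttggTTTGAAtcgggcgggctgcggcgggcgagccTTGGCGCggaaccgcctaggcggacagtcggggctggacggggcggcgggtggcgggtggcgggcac
Kif11: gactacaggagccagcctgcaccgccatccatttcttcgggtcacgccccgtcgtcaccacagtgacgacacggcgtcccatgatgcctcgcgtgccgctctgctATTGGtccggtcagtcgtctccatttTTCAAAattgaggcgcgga
Cdk1: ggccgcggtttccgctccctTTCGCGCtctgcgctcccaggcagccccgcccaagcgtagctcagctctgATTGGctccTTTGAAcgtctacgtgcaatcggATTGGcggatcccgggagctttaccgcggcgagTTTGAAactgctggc

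Mcm6 held E2F letters in overlapping runs of TTGGCGC and GCGCGAA, which is TTCGCGC on the other strand. Mki67 and Cdk1 held E2F letters together with CHR letters, and Kif11 held CHR and CCAAT letters only. Mcm2 and Pcna, whose stretch is not shown, held no E2F letters over the 300 bases searched. Mcm2 held CHR letters and, outside the stretch shown, CCAAT letters, and Pcna held CCAAT letters only. The E2F letters of Cdt1 begin at bases 18 and 33 after its start and are outside the stretch shown. Over the 300 bases searched, E2F letters were in 13 of 19 S-phase promoters (68.4%), in 3 of 18 mitotic promoters (16.7%) and in 10.9% of 27025 promoters of all genes. CHR letters were in 5 S-phase promoters (26.3%), in 14 mitotic promoters (77.8%) and in 21.7% of all. CCAAT letters were in 11 S-phase promoters (57.9%), in 16 mitotic promoters (88.9%) and in 41.1% of all. CHR and CCAAT letters stood together in 4 S-phase promoters (21.1%), in 14 mitotic promoters (77.8%) and in 8.61% of all. A match of letters does not show that a factor binds there.

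Reads on genes numbered 8679640 to 18108536 in AIMD mice (median 11244581) and 4372377 to 14405838 in vehicle-treated mice (median 7855340), so the AIMD mice were sequenced more deeply (two-sided exact permutation test, p = 0.0345). Vehicle replicate 8 had the fewest reads and stood lowest of the 15 mice in 11 of 22 mitotic genes and in 7 of 20 S-phase genes. AIMD replicate 4, with 8679640 reads, was also lowest in 7 of 20 S-phase genes, and in 0 of 22 mitotic genes. The markers of epithelial cells summed to an FPKM of 26349 to 40047 over all mice, and none of them was at 0. Between the groups, limma called 4315 of 11971 genes, 36.0%, at an adjusted p under 0.05, with 19.4% higher and 16.6% lower in AIMD mice.

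Few of the S-phase and mitotic genes changed between AIMD and vehicle-treated mice, and those that fell were S-phase genes. Of 20 S-phase genes tested, Pcna rose, Cdt1 and Mcm2 fell and 17 were not called. Of 22 mitotic genes tested, Kif11 and Mki67 rose, none fell and 20 were not called. The 5 members called, of 42 tested, make a smaller share than the 36.0% of all genes. With limma no mitotic gene was lower even at an unadjusted p under 0.05 (0 of 22), and limma voom, which called 19.6% of all genes higher and 17.5% lower, and the exact rank-sum test gave 0 as well. The rank-sum test called 3884 of all genes in either direction at an adjusted p under 0.05. The share of all genes past an unadjusted p under 0.05 was not counted for any comparison of AIMD with vehicle-treated mice.

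The estimates lay on both sides of 0 in the S-phase list and mostly above 0 in the mitotic list, and the difference between the lists was not tested. The log2 fold change was above 0 in 9 of 20 S-phase genes, with a median of -0.04, and in 17 of 22 mitotic genes, with a median of 0.22. The median over all genes tested was 0.01. The S-phase genes ranged from -0.97 to 0.35 and the mitotic genes from -0.39 to 0.61. Without vehicle replicate 8 the mitotic median was 0.12, and 5 members were called, with Ccnb2 lower (-0.45) and Mki67 no longer called. In bulk tissue, more dividing cells and more RNA per dividing cell cannot be told apart. The 2 groups of mice overlapped in each of the 5 genes called, whereas over all genes 8.57% had groups without overlap (5.27% higher and 3.30% lower in AIMD mice).

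**Figure D1:**
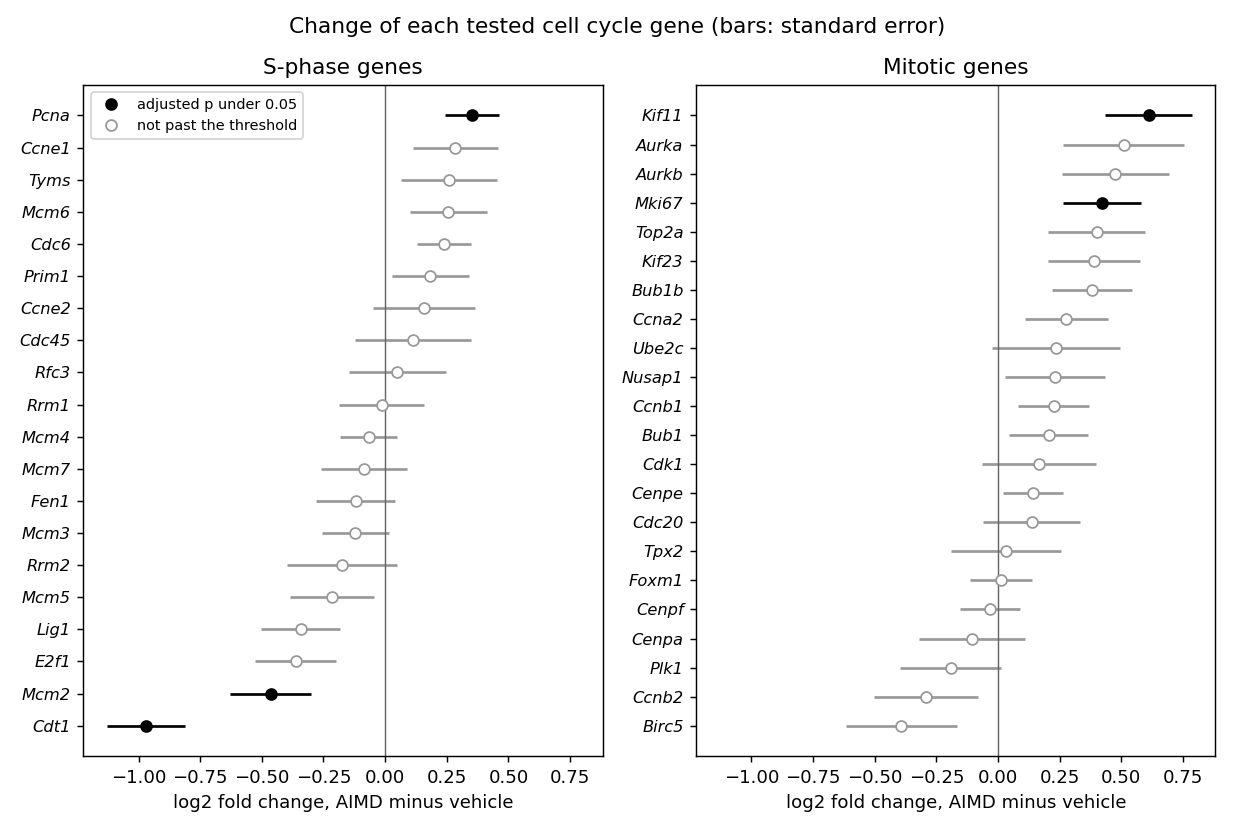
Log2 fold change of each tested gene, AIMD minus vehicle-treated mice on the log2(FPKM + 0.5) scale, with bars for the standard error and filled points for an adjusted p under 0.05. S-phase genes reach from -0.97 (Cdt1) to 0.35 (Pcna), and 17 of 22 mitotic genes lie to the right of 0.

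Licensing, the step that readies an origin before S phase, held the largest change of any member. Cdt1, which loads the helicase onto DNA, had an FPKM (reads scaled for gene length and for depth) of 2.85, 3.79 and 5.78 in AIMD mice (lowest, median, highest) and of 5.51, 7.89 and 10.7 in vehicle-treated mice. The ranges touched only at their ends, since 6 of 7 AIMD values were under the whole vehicle range. The mean was 3.88 ± 0.959 (SD, n = 7) against 8.11 ± 1.90 (SD, n = 8), a ratio of 0.478. The log2 fold change was -0.97 (SE, the standard error of the estimate, 0.16, limma adjusted p = 0.000217). Cdt1 lies on the plus strand of chromosome 8, from 122568015 to 122573554 (GRCm38), and none of its 50-base windows occurs in another gene. The other loader, Cdc6, differed by 0.24 (SE 0.11, limma adjusted p = 0.102), with a median FPKM of 0.747 in AIMD and 0.546 in vehicle-treated mice.

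Of the 6 Mcm genes, which encode the helicase that opens DNA at the fork, Mcm2 alone passed the test. Its FPKM was 3.73, 4.60 and 7.89 in AIMD mice and 5.29, 7.41 and 9.65 in vehicle-treated mice. AIMD mice were mostly low, with 5 of 7 under the lowest vehicle-treated mouse, and the other two were within the vehicle range. Mcm2, on chromosome 6 from 88883474 to 88898780 (minus strand), changed by -0.46 (SE 0.17, limma adjusted p = 0.0365). That call was kept without AIMD replicate 2 or 3 or vehicle replicate 3, 6 or 8, but was lost without any of the other 10 mice (highest limma adjusted p = 0.0854) and with the exact rank-sum test. It was also lost with no filter on low values (limma adjusted p = 0.0654) and at a threshold of 0.01. Mcm6 had an FPKM of 2.88, 5.12 and 8.50 in AIMD mice and of 3.28, 4.14 and 4.77 in vehicle-treated mice. In Mcm6, 6 of 7 AIMD mice exceeded the whole vehicle range and the seventh, AIMD replicate 4, fell short of it. AIMD replicate 3 exceeded it by little (4.775 against 4.772). The log2 fold change of Mcm6 was 0.26 (SE 0.16, limma adjusted p = 0.213). Of the fits with a mouse left out, Mcm6 was called higher only without AIMD replicate 4 (limma adjusted p = 0.0384). Mcm3, Mcm4, Mcm5 and Mcm7 had values of -0.12, -0.07, -0.22 and -0.09, none called. So subunits of a single complex had estimates on both sides of 0. Cdc45, the helicase's activator, had a value of 0.11 (limma adjusted p = 0.736).

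Among the polymerases and their clamp, Pcna, the ring that holds polymerase on DNA, rose. Its FPKM was 21.1, 25.1 and 28.9 in AIMD mice and 15.7, 19.7 and 22.6 in vehicle-treated mice. High values were those of AIMD mice, of which 5 of 7 exceeded every vehicle-treated mouse, but the ranges overlapped. The mean was 25.0 ± 2.74 (SD, n = 7) against 19.5 ± 2.61 (SD, n = 8), a ratio of 1.28. The log2 fold change was 0.35 (SE 0.11, limma adjusted p = 0.0180), and it stayed called with any mouse left out. Pcna lies on chromosome 2 from 132249162 to 132253314 (minus strand), and 19.1% of its 50-base windows also occur in other genes, chiefly the pseudogene Pcna-ps2. Prim1, which makes the primers, and Rfc3, of the clamp loader, had values of 0.18 and 0.05, neither called. Pold1 and Pole, the catalytic subunits of the main polymerases, were too low to be tested, with a mean FPKM of 0.349 and 0.311 in AIMD and of 0.343 and 0.263 in vehicle-treated mice.

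The genes that finish and feed replication did not pass the test. Lig1, the ligase that joins Okazaki fragments, had an FPKM of 2.98, 3.45 and 5.66 in AIMD mice and of 3.68, 5.14 and 6.73 in vehicle-treated mice, which gave a log2 fold change of -0.34 (SE 0.16, limma adjusted p = 0.104). Fen1, which trims the fragments, had a value of -0.12. The nucleotide enzymes Rrm1, Rrm2 and Tyms had values of -0.01, -0.17 and 0.26. Rrm2 and Pcna were the S-phase genes with the highest levels, and Rrm2 ran from 18.6 to 62.5 FPKM in vehicle-treated mice.

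The 3 regulators of entry into S phase were not called and pointed in both directions. E2f1, an activator of S-phase genes, had an FPKM of 0.609, 0.869 and 1.48 in AIMD mice and of 0.871, 1.22 and 2.39 in vehicle-treated mice. AIMD mice were on the low side, with 4 of 7 below all vehicle-treated mice, and the log2 fold change was -0.36 (SE 0.16, limma adjusted p = 0.0940). Ccne1, the cyclin E that starts S phase, had an FPKM of 0.722, 1.23 and 2.44 in AIMD mice and of 0.601, 0.848 and 1.49 in vehicle-treated mice, which gave a log2 fold change of 0.29 (SE 0.17, limma adjusted p = 0.210). Its ranges overlapped almost wholly, 1 AIMD mouse exceeding the highest vehicle-treated mouse. Ccne2, the other cyclin E, had a value of 0.16.

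In mitosis the clearest rise was in Kif11, the motor that pushes spindle poles apart. Its FPKM was 2.64, 3.53 and 4.89 in AIMD mice and 1.14, 2.26 and 3.41 in vehicle-treated mice. No AIMD mouse was as low as 6 of the 8 vehicle-treated mice, and 4 of 7 were above them all. The mean was 3.50 ± 0.734 (SD, n = 7) against 2.18 ± 0.755 (SD, n = 8), a ratio of 1.61. Kif11, on the plus strand of chromosome 19 from 37376403 to 37421859, changed by 0.61 (SE 0.18, limma adjusted p = 0.0123), and it stayed called with any mouse left out. The other spindle genes were not called. Kif23, a motor of the midbody, had a value of 0.39, and the microtubule binders Nusap1 and Tpx2 had values of 0.23 and 0.03. Birc5, a subunit of the chromosomal passenger complex, had the lowest value of the mitotic list, -0.39 (SE 0.23, limma adjusted p = 0.187). Its FPKM was 8.93, 9.94 and 15.7 in AIMD mice and 8.13, 14.9 and 33.4 in vehicle-treated mice, so the AIMD range lay within the vehicle range.

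Mki67, the proliferation marker that coats mitotic chromosomes, also rose. Its FPKM was 4.29, 5.33 and 6.19 in AIMD mice and 2.79, 3.75 and 6.79 in vehicle-treated mice. The highest mouse was a vehicle-treated one, and the 4 lowest were vehicle-treated too. The mean was 5.47 ± 0.669 (SD, n = 7) against 4.08 ± 1.34 (SD, n = 8), and Mki67, on chromosome 7 from 135689784 to 135716361 (minus strand), changed by 0.42 (SE 0.16, limma adjusted p = 0.0441). The call was kept without AIMD replicate 4 or vehicle replicate 1, 2 or 4, but was lost without any of the other 11 mice (highest limma adjusted p = 0.0866) and with the exact rank-sum test. It was also lost with no filter on low values, with quantile normalization, with the replicate number as a block and at a threshold of 0.01. Top2a, the topoisomerase that untangles chromosomes, had an FPKM of 3.36, 5.32 and 6.89 in AIMD mice and of 2.22, 4.02 and 5.43 in vehicle-treated mice. The groups overlapped, and the log2 fold change of 0.40 was not called (SE 0.20, limma adjusted p = 0.119).

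The kinases that run mitosis and the checkpoint were not called. Cdk1, the kinase that starts mitosis, had an FPKM of 7.95, 10.5 and 16.8 in AIMD mice and of 5.11, 10.2 and 17.3 in vehicle-treated mice. The vehicle range enclosed the AIMD range, and the log2 fold change was 0.17 (SE 0.23, limma adjusted p = 0.604). Plk1, a kinase of centrosomes and kinetochores, had an FPKM of 1.58, 1.77 and 2.67 in AIMD mice and of 1.14, 2.33 and 4.26 in vehicle-treated mice, again enclosing the AIMD range. The log2 fold change of Plk1 was -0.19 (SE 0.21, limma adjusted p = 0.492). Aurka and Aurkb, the Aurora kinases, had values of 0.51 and 0.48, with limma adjusted p of 0.112 and 0.0945. The checkpoint kinases Bub1 and Bub1b had values of 0.21 and 0.38, neither called.

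The cyclins, the anaphase genes and the centromere genes were not called either. Ccnb1, a cyclin B partner of Cdk1, had an FPKM of 1.11, 1.60 and 2.04 in AIMD mice and of 0.740, 1.39 and 1.81 in vehicle-treated mice, with overlapping ranges and a log2 fold change of 0.23 (SE 0.14, limma adjusted p = 0.227). Ccna2, the cyclin A that serves both phases, had a value of 0.28, and Ccnb2, the other cyclin B, had -0.29. Foxm1, an activator of mitotic genes, had an FPKM of 0.595, 0.721 and 0.940 in AIMD mice and of 0.389, 0.800 and 0.940 in vehicle-treated mice. Its groups overlapped throughout, with a log2 fold change of 0.01 (SE 0.13, limma adjusted p = 0.948). Cdc20 and Ube2c, which serve the anaphase-promoting complex, had values of 0.14 and 0.24. The centromere genes Cenpa, Cenpe and Cenpf had values of -0.11, 0.14 and -0.03.

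**Figure D2:**
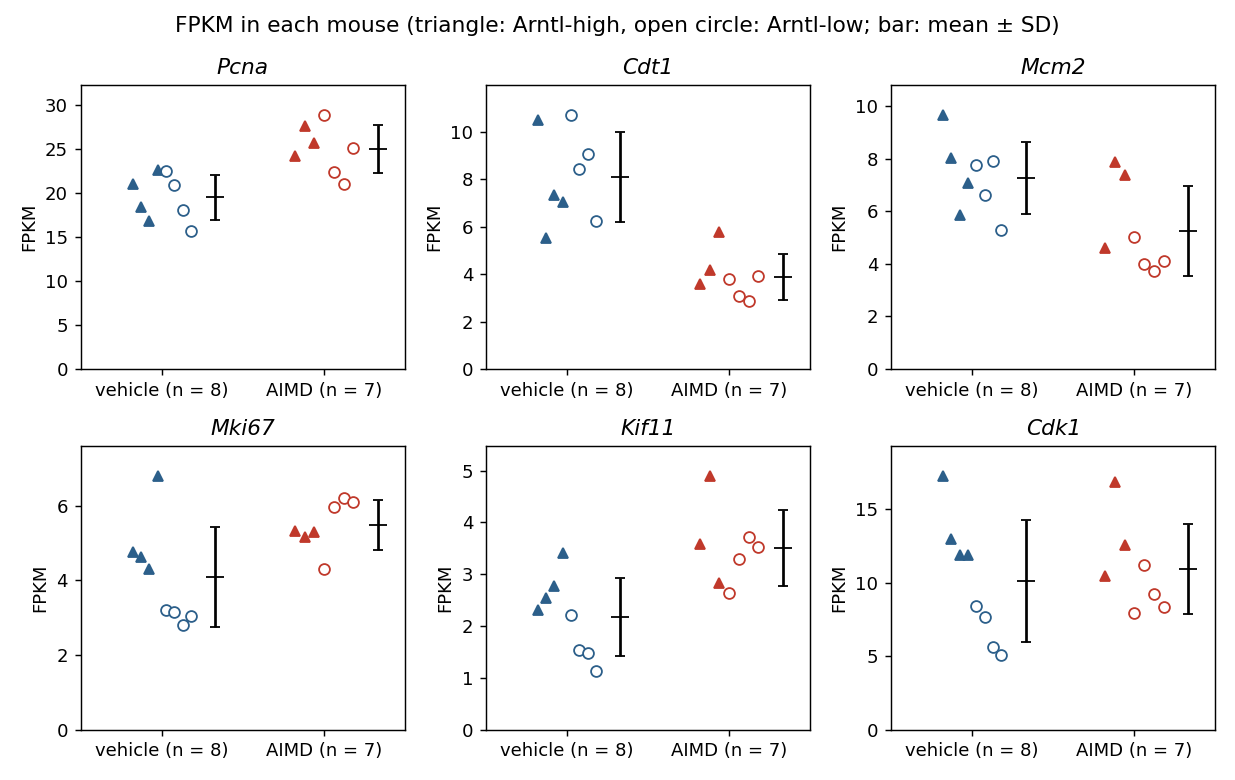
FPKM of 6 genes in each of 8 vehicle-treated and 7 AIMD mice, with the mean and SD as a bar; triangles and open circles are the Arntl-high and Arntl-low mice, set apart by their clock genes. Cdt1 separates the groups almost fully, and in Mki67, Kif11 and Cdk1 the 3 lowest points are Arntl-low vehicle-treated mice.

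The mice of each group fell into 2 sets by their clock genes, which follow a daily cycle, and the mitotic genes differed between these sets in vehicle-treated mice. The sets were defined from 14 clock genes alone, by the sign of their first principal component centred within groups (92.0% of the variance). Arntl, a clock activator, had an FPKM of 12.5 to 20.7 in the Arntl-high mice (vehicle replicates 1 to 4 and AIMD replicates 1 to 3) and of 4.00 to 9.90 in the Arntl-low mice (vehicle replicates 5 to 8 and AIMD replicates 4 to 7). Whether they match a grouping of the study is not given in the labels, and the levels below are a description with no test between sets.

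In vehicle-treated mice all 22 mitotic genes had a higher mean in Arntl-high than in Arntl-low mice, by a median of 0.65 on the log2 scale, and 15 of them did so without overlap. Over all genes tested, 7.50% lay that way without overlap. Ube2c, which marks cyclins for destruction, had an FPKM of 16.4, 13.9, 9.66 and 12.6 in the Arntl-high and of 5.44, 5.50, 4.29 and 5.10 in the Arntl-low vehicle-treated mice. In AIMD mice Ube2c was 9.51, 13.2 and 11.5 in the Arntl-high and 8.41, 9.71, 9.28 and 7.18 in the Arntl-low mice. The 4 Arntl-low vehicle-treated mice were thus the lowest of the 15 in Ube2c.

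Tpx2, which builds the spindle around chromosomes, had an FPKM of 6.25, 5.05, 4.62 and 5.21 in the Arntl-high and of 2.15, 2.41, 1.60 and 2.88 in the Arntl-low vehicle-treated mice. Tpx2 in AIMD mice was 3.46, 4.53 and 3.69 in the Arntl-high and 3.41, 3.34, 3.86 and 2.77 in the Arntl-low mice. The AIMD mice lay between the vehicle sets, except that AIMD replicate 7 was just under the highest Arntl-low vehicle-treated mouse. Mki67 was 4.75, 4.63, 4.30 and 6.79 in the Arntl-high and 3.19, 3.15, 2.79 and 3.04 in the Arntl-low vehicle-treated mice. Mki67 in AIMD mice was 5.33, 5.15 and 5.28 in the Arntl-high and 4.29, 5.96, 6.19 and 6.08 in the Arntl-low mice, so there the sets overlapped.

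Across the mitotic list the AIMD sets were closer together, and so they were in the 14 clock genes that define them. The median log2 difference of the clock genes, Arntl-high minus Arntl-low, was -0.74 in AIMD and -1.25 in vehicle-treated mice. Whether this bears on the mitotic genes was not tested. In AIMD mice 16 of 22 mitotic genes had a higher mean in the Arntl-high mice, by a median of 0.17, and 0 of 22 did so without overlap, against 7.44% of all genes. The S-phase genes had another pattern. In vehicle-treated mice 16 of 20 were higher in the Arntl-high mice (median 0.25) and 4 of 20 did not overlap, and in AIMD mice 18 of 20 were higher (median 0.38) and 6 of 20 did not overlap. Mcm7 and Fen1 were without overlap in both groups. No member was lower in the Arntl-high mice without overlap, against 6.52% of all genes in vehicle-treated and 7.41% in AIMD mice.

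**Figure D3:**
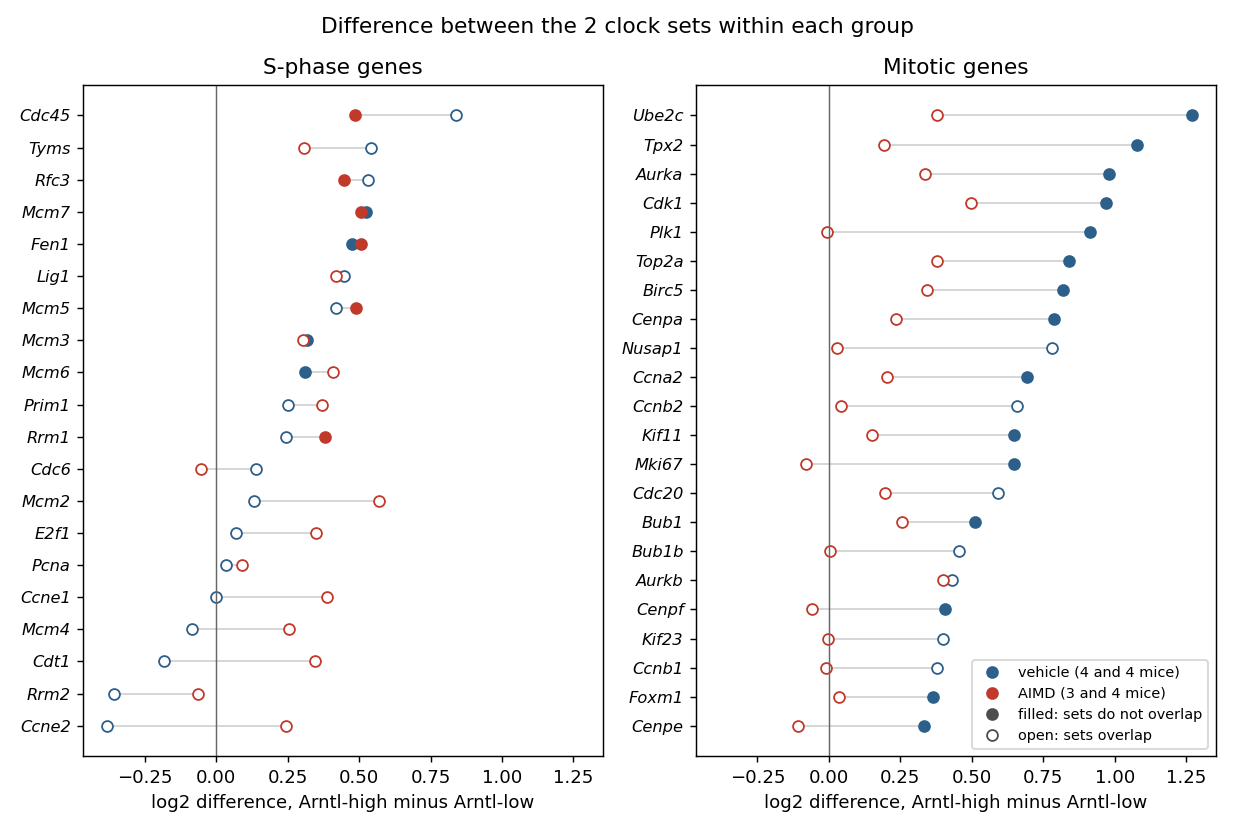
Difference between the Arntl-high and Arntl-low mice in mean log2(FPKM + 0.5) for each tested gene, blue for vehicle-treated and red for AIMD mice, filled where the sets do not overlap. The 22 blue points of the mitotic genes all lie to the right of 0, from 0.33 to 1.27, and the red points lie from -0.11 to 0.50.

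The mean over a list per mouse shows the same values mouse by mouse. The mean log2(FPKM + 0.5) of the mitotic genes was 2.05 to 2.25 in Arntl-high and 1.32 to 1.76 in Arntl-low vehicle-treated mice, and 1.92 to 2.31 and 1.78 to 2.03 in the AIMD sets. The mean of the S-phase genes was 2.26 to 2.60 and 1.94 to 2.39 in the vehicle sets, and 2.16 to 2.69 and 2.00 to 2.15 in the AIMD sets. The mitotic mean minus the S-phase mean was -0.79 to -0.62 in the 4 Arntl-low vehicle-treated mice and -0.39 to -0.05 in the other 11 mice, so these 4 stood apart in mitotic genes relative to their S-phase genes.

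**Figure D4:**
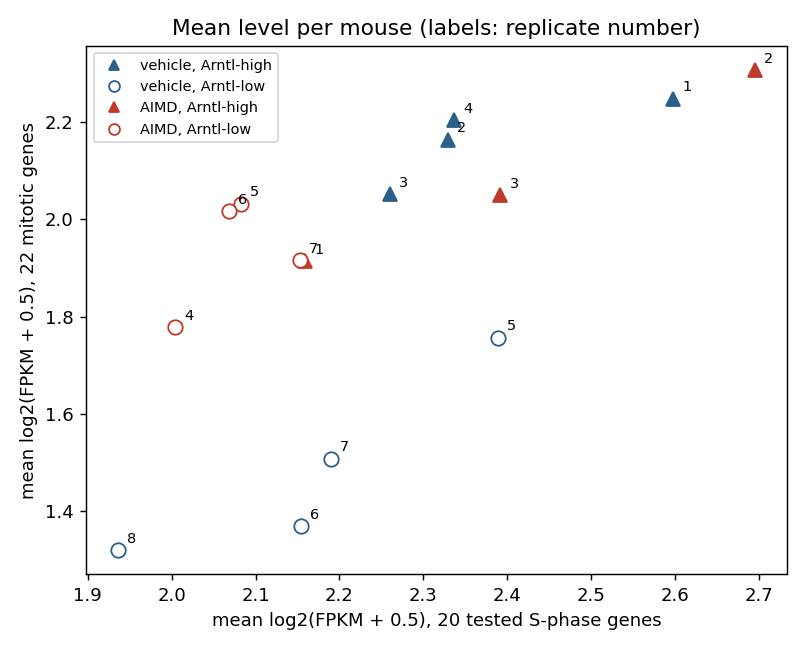
Mean log2(FPKM + 0.5) of 22 mitotic genes against that of 20 S-phase genes, 1 point per mouse, labelled with the replicate number. The 4 Arntl-low vehicle-treated mice lie at 1.32 to 1.76 on the mitotic axis, below mice with a like S-phase mean.

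Within Arntl-low mice alone, 21 of 22 mitotic genes had a log2 fold change above 0 between AIMD and vehicle-treated mice (median 0.46), and 5 passed the test, against 11.2% of all genes higher. These were Kif11 (0.87), Aurka (0.86), Mki67 (0.78), Ube2c (0.71) and Top2a (0.66), with limma adjusted p of 0.0119, 0.0323, 0.00916, 0.0120 and 0.0322. In fits chosen after seeing the data, which left out each mouse of a set in turn, Kif11, Mki67 and Ube2c were called in all 8 fits of this set, while Aurka was lost without AIMD replicate 5 or 6 or vehicle replicate 5, 6 or 7, and Top2a without AIMD replicate 5, 6 or 7 or vehicle replicate 6 or 7. The count of mitotic genes called ran from 3 to 7 in these fits and was 3 without AIMD replicate 5 or 6 or vehicle replicate 6 or 7, and the median ran from 0.39, without vehicle replicate 8, to 0.55. In the S-phase list Cdt1 (-1.21, limma adjusted p = 0.00358) and Mcm2 (-0.64, limma adjusted p = 0.0256) fell within Arntl-low mice, where 9.47% of all genes fell. Cdt1 was called in all 8 of those fits, but Mcm2 only without AIMD replicate 4 or vehicle replicate 6 or 8. Within Arntl-high mice the mitotic median was -0.04 and Plk1 fell by 0.65 on the log2 scale (limma adjusted p = 0.0361), while 8.65% of all genes were called higher and 7.08% lower. In this set 10 of 22 mitotic genes had a log2 fold change above 0. At an unadjusted p under 0.05 limma gave 4 mitotic genes lower and 0 higher. The call of Plk1 was kept only without vehicle replicate 3 or 4. No S-phase gene was called within Arntl-high mice (limma, 2 higher and 1 lower at an unadjusted p under 0.05), where Cdt1 had a value of -0.68 (limma adjusted p = 0.0632) and was called without vehicle replicate 2. Voom and the rank-sum test were not run within sets.

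Whether the difference between AIMD and vehicle-treated mice depends on the set was tested as an interaction. It was called for 0 of 42 members (limma, smallest adjusted p = 0.953) and for 0 of 11971 genes. At an unadjusted p under 0.05 it gave 6 members, Mki67, Plk1, Cenpf, Tpx2, Nusap1 and Ube2c, all mitotic, and 4.46% of all genes, and no other tool was run on it. The difference between sets in how AIMD mice compared is therefore not shown gene by gene. In a fit of all 15 mice with the clock axis, centred within groups, as a covariate, 5 mitotic genes were higher (Top2a, Aurka and Bub1b besides Kif11 and Mki67, where 22.7% of all genes were higher), and Lig1 joined Cdt1 and Mcm2 among the lower S-phase genes (20.0% of all genes were lower). With the axis centred over all mice 7 mitotic genes were higher, Aurkb and Ccna2 being added, and Lig1 was not called. That fit called 5111 of 11971 genes in either direction, against 4315 without the axis.

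The ranges of reads were lower in Arntl-low mice of both groups, and those of B cell and myeloid markers were higher in Arntl-low AIMD mice, with overlap in each case. Reads were 7533579 to 14405838 in Arntl-high and 4372377 to 9730275 in Arntl-low vehicle-treated mice, and 10504335 to 18108536 and 8679640 to 11786271 in the AIMD sets. The summed FPKM of 14 B cell and germinal centre markers was 38.6 to 94.6 in Arntl-high and 42.7 to 101 in Arntl-low vehicle-treated mice. There 0 of 13 tested were apart without overlap, where 7.50% of all genes were higher and 6.52% lower in Arntl-high mice. In the AIMD sets the sum was 11.1 to 27.2 and 27.1 to 74.5. Of the 13 tested, 8 were lower in Arntl-high AIMD mice without overlap, against 7.41% of all genes. Between AIMD and vehicle-treated mice, limma called 11 of these 13 lower within Arntl-high mice and 0 of 13 within Arntl-low mice, with medians of -1.25 and -0.30. Of all genes, 7.08% and 9.47% were called lower within these sets. The summed FPKM of 8 myeloid markers was 32.5 to 57.6 and 43.9 to 61.7 in the vehicle sets, and 54.4 to 120 and 99.4 to 215 in the AIMD sets. The median sum of T cell markers was 17.3 and 17.2 in the vehicle sets, and 14.6 and 21.7 in the AIMD sets. That of smooth muscle markers was 1072 and 1063 in the vehicle sets, and 648 and 679 in the AIMD sets. The part of depth and of these cells in the differences between sets was not tested.

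The rest of the replication genes, 43 listed from what each is known to do, had few rises, as 8 of 41 tested fell and 2 rose. The largest of the called changes were falls in Cdc7 (-0.80), the kinase that fires origins, Rfc2 (-0.78), of the clamp loader, Dnmt1 (-0.60), which copies DNA methylation, Pold3 (-0.58), a polymerase subunit, and Ung (-0.49), which removes uracil from DNA. Their limma adjusted p were 0.000667, 0.00717, 0.00159, 0.000172 and 0.0106. In Cdc7 the FPKM was 0.944 to 1.67 in AIMD and 1.77 to 3.55 in vehicle-treated mice, without overlap, and Pold3 and Dnmt1 did not overlap either, against 3.30% of all genes lower without overlap. The list median was -0.02, close to that of all genes, and 19.5% of the list fell against 16.6% of all genes, while 4.88% rose against 19.4%. The 2 that rose were Orc2 (0.44), of the origin recognition complex, and Mcm9 (0.38), a relative of the Mcm helicase.

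The rest of the mitotic genes, 58 listed, held more rises than falls, as 10 of 53 tested rose and 3 fell, with a median of 0.19. The largest called changes were Cenpk (0.76), of the inner kinetochore, Incenp (-0.71), of the chromosomal passenger complex, Mad2l1 (0.70), of the spindle checkpoint, Kif20b (0.67), a motor of cell division, and Cdc25c (0.64), the phosphatase that activates Cdk1. Their limma adjusted p were 0.00573, 0.00156, 0.0309, 0.00205 and 0.0140. In Incenp the FPKM was 3.72 to 6.09 in AIMD and 5.25 to 10.1 in vehicle-treated mice, and in Cenpk it was 3.35 to 5.88 and 0.999 to 3.63. The shares called, 18.9% higher and 5.66% lower, compare with 19.4% and 16.6% of all genes. In vehicle-treated mice 17 of these 53 genes were higher in the Arntl-high mice without overlap, and in AIMD mice 2 were. Of all genes, 7.50% and 7.44% were.

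Genes that set whether a cell enters the cycle held both rises and falls. Of 8 genes for G1 cyclins, their kinases and Myc, 2 rose and 0 fell with limma, with voom and with the rank-sum test. At an unadjusted p under 0.05, 3 were lower with each of these tests. Myc, a growth regulator, had a log2 fold change of 0.73 and Ccnd1, a cyclin D, of 0.59, with limma adjusted p of 0.00704 and 0.00777. These 2 of 8 are 25.0% of the list, against 19.4% of all genes. Of 18 brakes on the cycle 3 rose and 3 fell, 16.7% each way, close to the 19.4% and 16.6% of all genes. Gadd45a, a stress gene, fell by 1.00 on the log2 scale and Pkmyt1, an inhibitory kinase of Cdk1, by 0.59. Btg1, an antiproliferative gene, rose by 0.84, Ccng1, a p53 target, by 0.76 and Cdkn1a, the inhibitor p21, by 0.70. Cdkn1a had an FPKM of 177 to 273 in AIMD and of 101 to 195 in vehicle-treated mice.

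Of 13 genes of the E2F and MuvB factors themselves, 3 rose and 1 fell, 23.1% and 7.69% of the list against 19.4% and 16.6% of all genes. Tfdp1, the partner with which E2F factors bind DNA, had an FPKM of 1.62, 5.02 and 7.25 in AIMD mice and of 0.539, 1.07 and 2.13 in vehicle-treated mice. Its groups overlapped only at the ends, and the log2 fold change was 1.58 (SE 0.24, limma adjusted p = 0.000146). Lin54, the MuvB subunit that binds the CHR, rose by 0.87, and E2f4, a repressive E2F, by 0.64. Rbbp4, a histone-binding MuvB subunit, fell by 0.44 on the log2 scale.

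**Figure D5:**
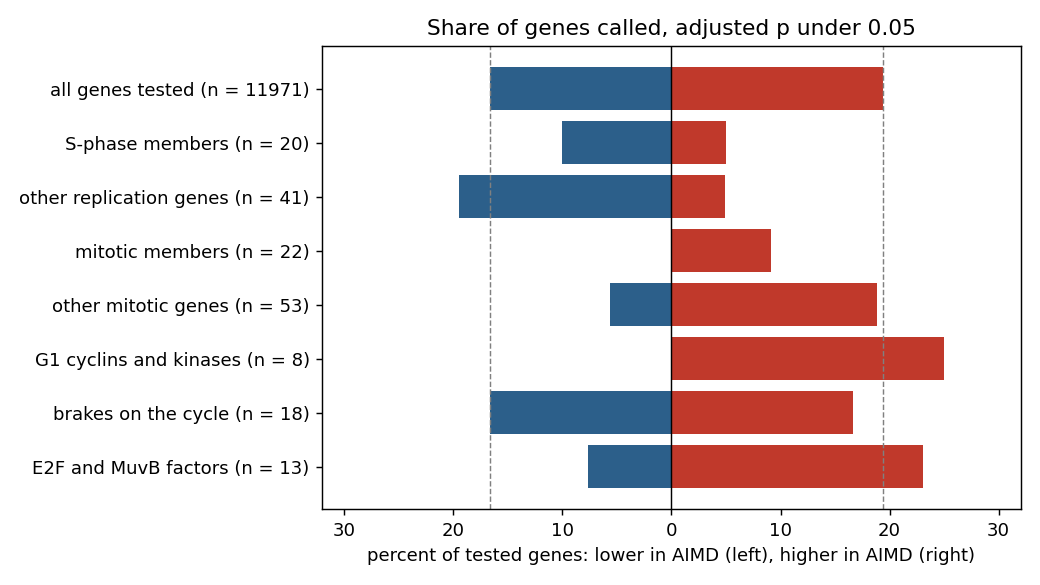
Percent of the tested genes of each cell cycle list called higher (right) or lower (left) in AIMD mice at an adjusted p under 0.05, with dashed lines at the 19.4% and 16.6% of all 11971 genes. The S-phase and mitotic members lie below the dashed lines on both sides.

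Markers of other cell types differed between the groups as well. Of all genes tested, limma called 19.4% higher and 16.6% lower. With voom 17.5% were lower, and with the clock axis centred within groups as a covariate 20.0% were. In AIMD and vehicle-treated mice the summed FPKM was 11.1 to 74.5 and 38.6 to 101 for B cell and germinal centre markers, of which 5 of 13 fell (11 of 13 with limma voom and with the clock axis centred within groups as a covariate) and Mef2b, a germinal centre factor, was at 0 in every mouse. The summed FPKM of smooth muscle markers was 217 to 823 and 526 to 3070. Of these 8 markers 2 were called lower (25.0%), and all 8 had a log2 fold change below 0, with a median of -0.83. The summed FPKM of T cell markers was 13.3 to 22.4 and 13.9 to 31.0 (1 of 8 fell, 12.5%). The 5 myeloid markers tested had 3 that rose, and the summed FPKM of all 8 was 54.4 to 215 and 32.5 to 61.7. Of 15 epithelial markers 3 rose and 3 fell (20.0% each way), close to the shares of all genes. Their sums were 28394 to 40047 (median 37457) and 26349 to 34699 (median 31611). In 6 of 7 AIMD mice the epithelial sum was above that of every vehicle-treated mouse. The part of these cells in the cell cycle results was not tested.

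Some members could share reads with other genes, because the counting setting for strand is not given. Fen1 lies opposite Gm10143 and Tmem258 over 84.2% of its exon bases, and 76.7% of its windows occur in other genes. Gins2, a partner of the helicase, was too low for the test, with a mean FPKM of 0.452 in AIMD and 0.184 in vehicle-treated mice. Its value is uncertain, as 67.3% of its exon bases lie opposite Gse1 and 65.4% of its windows occur there. Without a filter on low values Gins2 was called higher (0.47, limma adjusted p = 0.0180). The shares of windows found elsewhere were 23.4% for Ccnb1, 23.3% for Mcm7, 16.0% for Ube2c, 14.4% for Ccne2, 11.4% for Ccna2, 10.6% for Cdc20 and 10.4% for Plk1, and were under 6% for the members not named here, apart from Pcna at 19.1%.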

How the data were processed

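Cecal RNA of 7 AIMD and 8 vehicle-treated mice was measured, and groups came from the labels. The authors made poly-A selected, stranded libraries (TruSeq Stranded mRNA), aligned reads to GRCm38 with STAR and counted them with featureCounts on GENCODE genes, and the deposited values are FPKM per mouse and gene. How counts became FPKM and the strand setting are not given in the sources used here. The table held 45808 rows, of which 4 with a repeated symbol were left out. Reads were recovered as whole multiples (100% of 24279 genes, tolerance 0.02 reads), from which depth was summed, and the precision of low genes is limited by it. Each column is a separate mouse, but cages are not given, so p-values measure the spread between these mice only.

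Values were scaled by size factors from the median of ratios (1.0101 to 1.0104), and a gene was kept where 7 or more mice reached an FPKM of 0.5. Groups were compared on log2(FPKM + 0.5) with limma 3.58.1 (lmFit and eBayes with a trend, R 4.3.3) and Benjamini-Hochberg adjustment over 11971 genes, and fold changes of low genes are understated on this scale. A gene was called at an adjusted p under 0.05. Other work used Python 3.11.15, pandas 2.3.3, numpy 2.4.6, scipy 1.17.1 and matplotlib 3.10.9, and the scripts were tested on simulated data. The study's own model, DESeq2 with treatment and time of sacrifice, was not repeated because the labels used here give no time.

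The members and the gene lists were chosen with earlier results of these data known. All 45 members were accounted for, and those called were described in full together with Mki67, Pcna, Top2a, Mcm2, Mcm6, Ccne1, E2f1, Cdk1, Ccnb1, Plk1, Birc5 and Foxm1. Ube2c and Tpx2 were shown by mouse after their values were seen. Of each other cell cycle list, up to 5 called genes with the largest changes were named. Alternatives covered scaling, pseudocount, filter, test, threshold, replicate block, clock axis, clock sets and each mouse left out, with limma voom on the recovered reads and an exact two-sided rank-sum test as other tests.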

Additional observations from a re-analysis of the deposited data

Results flagged for a closer look

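The 45 members in AIMD and in vehicle-treated mice made 90 groups of values, and in 4 of them a single mouse lay far from the others of its group by Dixon's test of the gap to the nearest mouse. Chance gives about 1 such group in 20. Tyms, which makes thymidylate, had an FPKM of 6.50 in AIMD replicate 2 and of 3.53 to 4.45 in the other AIMD mice. In vehicle-treated mice Tyms was 1.35 in replicate 8, the mouse with the fewest reads, and 3.20 to 4.70 in the others. Aurkb, the kinase of the chromosomal passenger complex, was 0.978 in AIMD replicate 4 and 2.47 to 4.19 in the other AIMD mice. Cenpf, a kinetochore protein, was 0.782 in AIMD replicate 7 and 0.626 to 0.690 in the other AIMD mice.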

How the results depend on the processing

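Depth limits the precision of genes near an FPKM of 0.5, such as Cdc6, Cenpf and Foxm1. Pcna, Cdt1, Mcm2, Kif11 and Mki67 stayed called without further size factors, with a pseudocount of 0.1 or 1, with limma voom on recovered reads and with an FPKM of at least 2. Over all genes 2481 were called at a threshold of 0.01, 1883 within Arntl-high and 2477 within Arntl-low mice, against 4315. With the clock axis as a covariate 5111 were called when it was centred over all mice and 5118 when centred within groups. S-phase genes called higher, 1 in the report, were 2 with the rank-sum test (Cdc6 added) and with no filter (Gins2 added), 0 at 0.01 and 0 within either set, and 1 to 2 with a mouse left out. S-phase genes called lower, 2 in the report, were 1 with the rank-sum test, no filter or 0.01, 0 within Arntl-high mice, and 1 to 4 with a mouse left out. Mitotic genes called higher, 2 in the report, were 7 and 5 with the clock axis as a covariate, centred over all mice and within groups, 5 within Arntl-low mice, 1 with the rank-sum test, no filter or quantile normalization, 0 at 0.01 and within Arntl-high mice, and 1 to 4 with a mouse left out. Mitotic genes called lower, 0 in the report, were 1 within Arntl-high mice (Plk1) and 0 to 1 with a mouse left out (Ccnb2 without vehicle replicate 8). The mitotic median ran from 0.12 to 0.29 and the S-phase median from -0.11 to 0.02 with a mouse left out. With the replicate number as a block, in which vehicle replicate 8 has no partner and adds nothing to the difference, 0 S-phase genes were higher, 1 mitotic gene was higher and 1 lower (Birc5), Pcna and Mki67 were lost and the mitotic median was 0.12. The numbers share no more than a label, since same-numbered mice correlated at -0.35 to 0.43 and 1 of 7 AIMD mice correlated best with its own number. Members that were not called in the report changed sign in these fits. Within Arntl-high mice Mcm4 was 0.12, Rrm1 0.080, Cdc45 -0.030, Cdk1 -0.034, Cdc20 -0.045, Cenpe -0.087, Tpx2 -0.40, Nusap1 -0.14, Ube2c -0.18 and Foxm1 -0.15. Within Arntl-low mice Ccne2 was -0.14, Ccnb2 0.019, Plk1 0.27, Cenpa 0.19 and Cenpf 0.20. Rrm1 was 0.019 with the clock axis centred over all mice, Rfc3 was -0.079 with the block, and Foxm1 was -0.0031 with quantile normalization and -0.0025 with voom. With a mouse left out Rrm1 ran from -0.10 to 0.055, Rfc3 from -0.079 to 0.15, Tpx2 from -0.10 to 0.14, Foxm1 from -0.051 to 0.048, Cenpa from -0.25 to 0.0059 and Cenpf from -0.082 to 0.029. Where a setting changed a result, the cause was not tested, except that a stricter threshold can only remove calls. The fits that left out a mouse within a clock set were chosen after seeing the data.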
